A study of Danio rerio with 4 samples.

Results

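Amino acid and monocarboxylate transporters are membrane proteins that move amino acids, lactate, pyruvate, creatine and related small molecules into and out of cells. The genes described here were chosen by symbol: every row of the count tables whose zebrafish symbol starts with slc1a, slc3a, slc6a, slc7a, slc16a, slc36a, slc38a or slc43a. The prefixes matched 87 of 32379 rows, of which 85 are the members described here. One of them, SLC7A6OS, carries the prefix without encoding a carrier.

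RNA came from whole zebrafish embryos of the AB strain, lysed at 48 hours post fertilization. Control embryos had received 3 ng of a control morpholino at the 1-cell stage, and the others 3 ng of sMOsrsf5a, a morpholino against the splicing factor gene srsf5a. A morpholino is an antisense oligomer that blocks the splicing or translation of an RNA. Both groups were injected, and no uninjected group was analysed here. Each group had 2 libraries, numbered as replicates 1 and 2. Embryos were pooled, 80 per condition, and nothing in the labels tells whether a group's libraries are separate pools, so the p-values reflect only how these libraries vary, which may be technical.

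Gene counts ran from 15139525 to 36240893 per library, with control replicate 2 the deepest and control replicate 1 the shallowest. Between 29.0% and 34.2% of listed reads had several alignments and were counted for no gene, so values of close paralogs are uncertain. The targeted gene, srsf5a, stood at 335 and 286 CPM (gene counts scaled to library size) in the controls and at 335 and 368 CPM in srsf5a-morpholino libraries (log2 fold change 0.18 ± 0.11 SE; adjusted p = 0.424 in edgeR). A block of splicing or translation need not lower a gene's count, so this value does not check the labels. The marker lists of all 13 cell types sought in a whole embryo had members with reads. The liver marker fabp10a was low, between 0.212 and 1.21 CPM. Other genes sought as liver markers were not low, though whole-embryo RNA does not tell which tissue their reads came from. They were tfa, apoa2 and serpina1, with means over all libraries of 841, 2246 and 162 CPM. Of these, tfa was called lower in edgeR (-1.04 ± 0.16, adjusted p = 0.0331), while apoa2 and serpina1 had overlapping groups.

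These carriers fall into families with different jobs. SLC1 proteins take up glutamate and small neutral amino acids, SLC6 proteins take up transmitters, creatine and amino acids with sodium and chloride, and SLC38 and SLC36 proteins carry small neutral amino acids with sodium or protons. SLC7 proteins are either cationic amino acid carriers or the light chains of heteromeric exchangers whose heavy chains are the SLC3 proteins. SLC43 includes facilitators of large neutral amino acids, and SLC16 holds the monocarboxylate transporters of lactate and pyruvate along with carriers of thyroid hormone, aromatic amino acids and creatine. In mammals, several of these genes are targets of ATF4, the transcription factor of the amino acid stress response.

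Of the 85 members, 76 had enough reads to be tested. SLC16A9, one SLC43A2 gene (ENSDARG00000061120) and one SLC7A3 gene (ENSDARG00000020645) rose in embryos given the srsf5a morpholino, at a Benjamini-Hochberg adjusted p under 0.05 in edgeR's quasi-likelihood test over all 19917 tested genes. These 3 genes are 3.95% of the tested members, against 1.22% of all tested genes called higher. Members were chosen with earlier results of these data known, so this share and those that follow describe the set and test nothing. No member was called lower in this edgeR fit, against 0.768% of all tested genes. With the replicate number as a block, edgeR called 11 members higher and 2 lower. Of all 19917 tested genes, that fit called 865 higher and 717 lower. In the main fit 6 members were lower at an unadjusted p under 0.05, and DESeq2 called 1 lower. At that unadjusted level 17 members (22.4%) were higher, against 10.5% of all genes, and the 6 lower ones (7.89%) compare with 10.1% of all genes. The calls rest on few libraries, and the number of calls changed with each library left out, among the members and over all genes. The ranges of both are given at the end.

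DESeq2 called 7 members higher (9.21%, against 2.56% of all genes) and 1 lower (1.32%, against 2.21%). It added SLC1A4, slc3a2a, SLC7A7 and one SLC38A5 gene among the higher and one SLC38A3 gene (ENSDARG00000027065) as the lower. Both srsf5a-morpholino libraries lay above both controls in 25 tested members (32.9%), where 26.1% of all tested genes did so, and below both in 15 (19.7%), where 26.3% of all tested genes did so. Across the tested members 44 had a log2 fold change above 0 and 32 below, with a median of 0.07 beside 0.00027 for all tested genes. All members together took 0.219% and 0.217% of the control libraries' gene counts and 0.268% and 0.244% of those with the srsf5a morpholino. Much of that difference lay in the called SLC43A2 gene, with means of 156 CPM in control and 342 CPM in srsf5a-morpholino libraries.

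**Figure D1:**
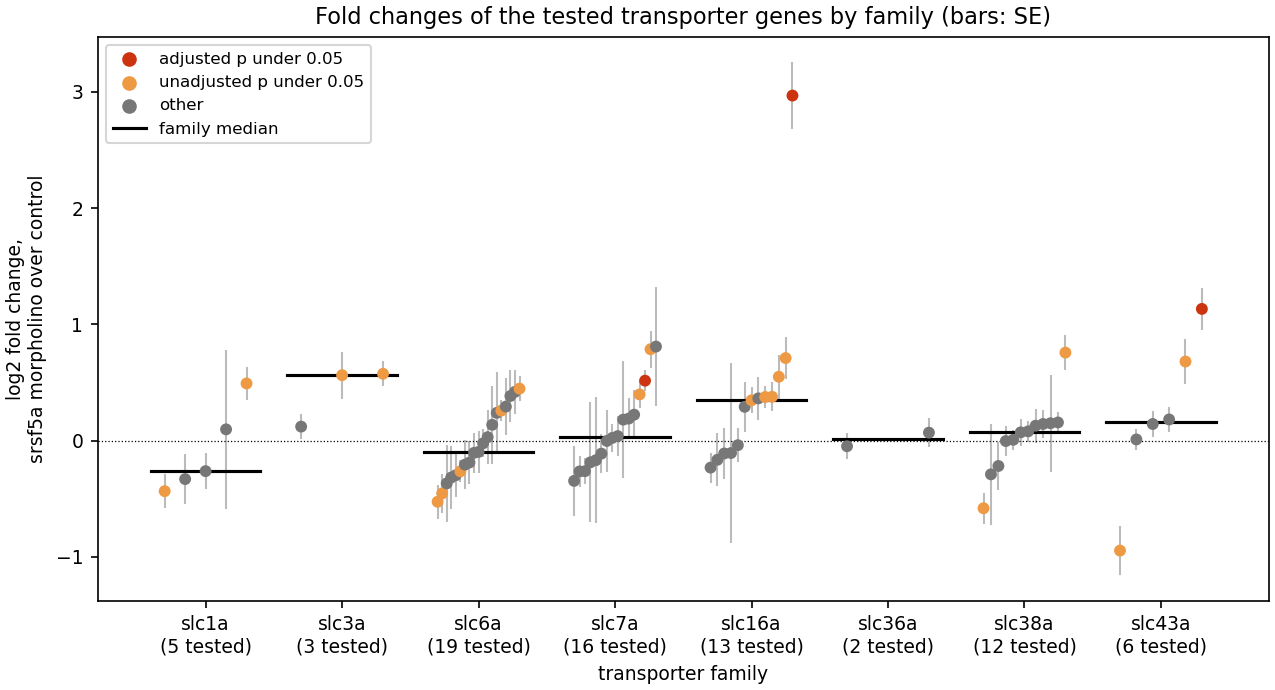
Log2 fold change (y axis, srsf5a morpholino over control, bars are SE from the edgeR fit) of each of the 76 tested members, grouped on the x axis by family, with the family median as a black line. Red points passed an adjusted p of 0.05, orange points an unadjusted p of 0.05; SLC16A9 stands highest at 2.97, and the slc3a and slc16a medians (0.56 and 0.35) lie above 0 while the slc1a median lies at -0.26.

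The largest difference among the members was in a monocarboxylate transporter gene. SLC16A9 (ENSDARG00000013926) encodes a protein whose human form, MCT9, has been linked to carnitine and creatine transport. It had 18 and 61 reads in control libraries and 211 and 334 in srsf5a-morpholino libraries, which is 1.20 and 1.66 CPM against 9.15 and 14.2 CPM. The groups did not overlap, and srsf5a-morpholino replicate 2 was the highest library. The means were 1.43 ± 0.33 and 11.7 ± 3.56 CPM (SD, n = 2), a 7.83-fold increase (log2 2.97 ± 0.29 SE, adjusted p = 0.0149 in edgeR). Among all 19917 tested genes it ranked 19 by p and 23 by the size of its increase. The call held without each library in turn, with log2 fold changes of 2.62 to 3.27. In the authors' deposited table its log2 fold change is 1.82 with an adjusted p of 1.99e-14. DESeq2 as run here gave a log2 fold change of 2.99, further from 0 than the deposited value, and the reason for the difference was not tested.

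The other monocarboxylate transporter genes showed smaller differences, with values on both sides of 0. Of 14 slc16a members, SLC16A9 included, 13 were tested. SLC16A9 was the 1 called higher in edgeR and in DESeq2, and 0 were called lower in either. At an unadjusted p under 0.05, 6 of the 13 were higher, SLC16A9 among them, and 0 lower. The srsf5a-morpholino libraries lay above both controls in 8 of the 13 and below in 2, and the median log2 fold change was 0.35. Among all tested genes 26.1% lay above and 26.3% below both controls, and 10.5% were higher and 10.1% lower at the unadjusted level. The shares called higher and lower were 1.22% and 0.768% in edgeR, and 2.56% and 2.21% in DESeq2.

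Carriers of lactate and pyruvate come first. The SLC16A1 gene with more reads (ENSDARG00000068572), which encodes MCT1, stood at 67.8 and 60.8 CPM in control libraries and at 83.0 and 83.5 CPM in srsf5a-morpholino libraries (0.38 ± 0.10, adjusted p = 0.0960 in edgeR). Its paralog (ENSDARG00000016963) had 3.20 and 3.19 against 3.08 and 2.84 CPM. SLC16A3 encodes MCT4, which exports lactate from glycolytic cells. One SLC16A3 gene (ENSDARG00000045051) had 20.4 and 22.4 CPM in control libraries and 27.3 CPM in both other libraries (0.35 ± 0.11), and the other (ENSDARG00000028583) had 2.87 and 3.00 against 3.42 and 3.78 CPM (0.29 ± 0.22). Neither passed the adjusted test.

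SLC16A6 encodes a carrier that in zebrafish liver exports ketone bodies. It had 5.61 and 4.50 CPM in control libraries and 7.84 and 8.49 CPM in srsf5a-morpholino libraries (0.71 ± 0.18, with an edgeR adjusted p = 0.0930), and it was named only once its values were known. SLC16A12, a creatine carrier in mammals, has a pair of genes. One (ENSDARG00000017773) had 4.67 and 5.59 against 6.80 and 8.36 CPM (0.55 ± 0.19), without overlap. The other (ENSDARG00000089885) had 28.9 and 36.1 against 29.1 and 34.5 CPM (-0.04 ± 0.15), with overlap.

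SLC16A10, which carries aromatic amino acids, had 41.6 and 33.4 CPM in control libraries and 31.5 and 32.1 CPM in srsf5a-morpholino libraries (-0.23 ± 0.13, adjusted p = 0.364 in edgeR). SLC16A4 (0.38 ± 0.13), SLC16A13 (0.36 ± 0.18) and SLC16A5 (-0.16 ± 0.23) also missed the adjusted test. SLC16A8 encodes MCT3, the lactate carrier of the retinal pigment epithelium, and separated the libraries by replicate number rather than by morpholino. Its values were 1.00 and 6.57 CPM in control replicates 1 and 2, and 1.69 and 5.86 CPM in srsf5a-morpholino replicates 1 and 2. It was the 1 tested member with a ratio over 2-fold between replicates 1 and 2 in the same direction in both groups, as were 138 tested genes (0.693%).

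The SLC43 family held the called gene with the most reads. SLC43A2 encodes LAT4, a facilitator of large neutral amino acids such as leucine and phenylalanine, and zebrafish has a pair of these genes. ENSDARG00000061120 stood at 187 and 126 CPM in control libraries and at 359 and 325 CPM in srsf5a-morpholino libraries. The controls differed from each other more than the srsf5a-morpholino libraries did, and the groups did not overlap. The increase was 2.19-fold (log2 1.13 ± 0.18 SE, adjusted p = 0.0356 in edgeR). Without control replicate 2, the lower control, it was 0.87 and the call ended (adjusted p = 0.0928). The authors' deposited table gives a log2 fold change of 0.98 and an adjusted p of 1.7e-08, where DESeq2 as run here gave 1.13. Its paralog ENSDARG00000036848 had 146 and 145 CPM in control libraries and 147 and 146 CPM in the other libraries (0.01 ± 0.09).

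The SLC43A3 genes lay on opposite sides of 0. The human protein carries purine nucleobases. ENSDARG00000059682 had 5.61 and 4.80 CPM in control libraries and 2.77 and 2.59 CPM in srsf5a-morpholino libraries (-0.95 ± 0.21, adjusted p = 0.0729 in edgeR). ENSDARG00000057949 had 4.41 and 6.10 CPM against 8.84 and 8.32 CPM (0.68 ± 0.20, adjusted p = 0.118 in edgeR). In neither gene did the groups overlap, and both were named only once their values were known. The genes for SLC43A1, or LAT3, stood at 0.18 ± 0.10 (ENSDARG00000037748) and 0.14 ± 0.11 (ENSDARG00000037393). In all, 6 slc43a genes were tested, and 1 was called higher and 0 lower in edgeR and in DESeq2. At an unadjusted p under 0.05, 2 were higher and 1 lower, and the median was 0.16. For all tested genes, 1.22% were called higher and 0.768% lower in edgeR, and 2.56% and 2.21% in DESeq2. Unadjusted, 10.5% were higher and 10.1% lower.

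**Figure D2:**
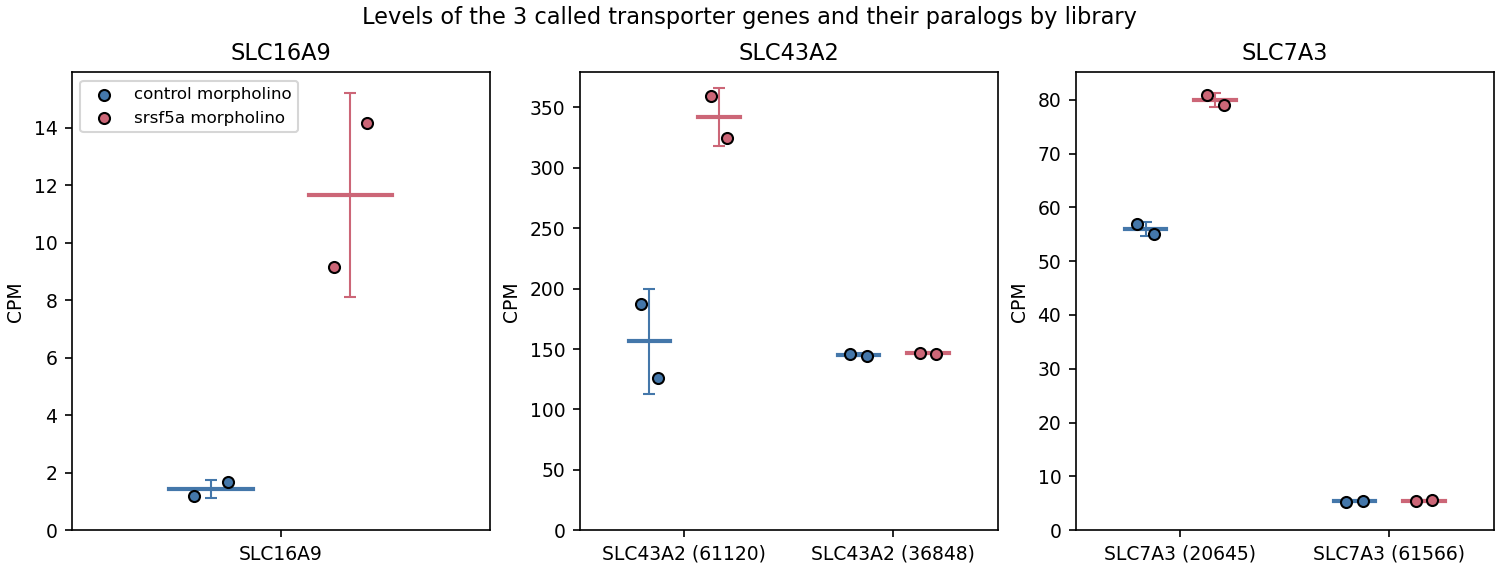
Levels in CPM (y axis, from 0) in each library for SLC16A9, the SLC43A2 genes and the SLC7A3 genes, with the last 5 digits of the Ensembl identifier where a symbol has more than 1 gene. Points are libraries, horizontal lines group means and bars SD (n = 2); both srsf5a-morpholino points lie above both control points in SLC16A9, in SLC43A2 ENSDARG00000061120 (359 and 325 against 187 and 126) and in SLC7A3 ENSDARG00000020645, but not in the paralogs. CPM is not scaled by gene length, so levels of different genes are not compared.

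Among cationic amino acid carriers and light chains, SLC7A3 rose. SLC7A3 encodes CAT3, which carries arginine and lysine. ENSDARG00000020645 stood at 56.9 and 55.0 CPM in control libraries and at 80.9 and 79.1 CPM in srsf5a-morpholino libraries, with libraries of a group close together. This was a 1.43-fold increase (log2 0.52 ± 0.09 SE, adjusted p = 0.0420 in edgeR). The authors' deposited table gives a log2 fold change of 0.47 with an adjusted p of 0.00292, where DESeq2 as run here gave 0.52. The call ended without control replicate 1 (0.54, adjusted p = 0.151) and without control replicate 2 (0.49, adjusted p = 0.246), with little movement of the fold change. The other SLC7A3 gene (ENSDARG00000061566) had 5.27 and 5.40 against 5.37 and 5.60 CPM (0.04 ± 0.17).

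SLC7A7 encodes y+LAT1, a light chain that exchanges cationic for neutral amino acids. It had 6.94 and 6.89 CPM in control libraries and 13.1 and 10.7 CPM in srsf5a-morpholino libraries (0.79 ± 0.16), without overlap, and was called in DESeq2 (adjusted p = 0.0368) but not in edgeR (adjusted p = 0.0564). SLC7A8 encodes LAT2, a light chain for neutral amino acids, and had 71.2 and 67.7 against 100.3 and 82.6 CPM (0.40 ± 0.12, adjusted p = 0.124 in edgeR). slc7a11, the cystine light chain xCT, had 14 and 17 reads in the controls and 17 and 10 in the other libraries, too few to read a direction from (-0.17 ± 0.54).

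All 16 slc7a members were tested. In edgeR 1 was called higher and 0 lower, 3 were higher and 0 lower at an unadjusted p under 0.05, and DESeq2 called 2 higher and 0 lower. Of all tested genes, edgeR called 1.22% higher and 0.768% lower, and DESeq2 called 2.56% and 2.21%. Unadjusted, those shares were 10.5% and 10.1%. The slc7a median was 0.03. The slc7a range ran from -0.35 for SLC7A9, the renal cystine light chain, to 0.81 for slc7a8b, which had at most 0.891 CPM. SLC7A6OS is known as a nuclear import factor homolog, named for its position opposite SLC7A6. It had 62.1 and 54.3 CPM in control libraries and 45.9 and 50.9 CPM in srsf5a-morpholino libraries (-0.26 ± 0.11, adjusted p = 0.243 in edgeR), beside 0.02 ± 0.12 for SLC7A6. The strand setting of the counting is not given in the sources used here. Whether the SLC7A6OS and SLC7A6 genes share reads was not tested.

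The heavy chains that bring these light chains to the cell surface lay above 0 in all 3 cases, and none passed the adjusted test in edgeR. At an unadjusted p under 0.05, 2 were higher and 0 lower, and DESeq2 called 1 higher and 0 lower. Over all tested genes those shares were 10.5% and 10.1% unadjusted, 1.22% and 0.768% called in edgeR, and 2.56% and 2.21% in DESeq2. slc3a2a, which encodes a form of the heavy chain 4F2hc (CD98), had 48.7 and 49.9 CPM in control libraries and 79.2 and 67.7 CPM in srsf5a-morpholino libraries (0.58 ± 0.11, adjusted p = 0.0519 in edgeR and 0.00304 in DESeq2). The other SLC3A2 gene (ENSDARG00000037012) had 63.1 and 69.6 against 77.4 and 67.1 CPM, with overlap (0.12 ± 0.11). SLC3A1, the heavy chain rBAT of the kidney and gut, had 3.14 and 3.05 against 4.64 and 4.50 CPM, without overlap (0.56 ± 0.20, adjusted p = 0.182 in edgeR).

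Of 13 slc38a members, which carry glutamine and other small neutral amino acids, 12 were tested. In edgeR 0 were called, 1 was higher and 1 lower at an unadjusted p under 0.05, and the same numbers were called in DESeq2. Beside these, 10.5% of all tested genes were higher and 10.1% lower unadjusted. edgeR called 1.22% higher and 0.768% lower, and DESeq2 called 2.56% higher and 2.21% lower. One SLC38A5 gene (ENSDARG00000009901), encoding the glutamine carrier SNAT5, had 22.2 and 21.0 CPM in control libraries and 41.7 and 31.2 CPM in srsf5a-morpholino libraries (0.76 ± 0.15, adjusted p = 0.0570 in edgeR and 0.00285 in DESeq2). Its groups did not overlap, although the srsf5a-morpholino libraries differed by more than the controls. The paralog slc38a5b had 128 and 133 against 137 and 139 CPM (0.08 ± 0.09).

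SLC38A3 encodes the glutamine carrier SNAT3 and has a pair of genes, named only once their values were known. ENSDARG00000027065 had 30.04 and 35.7 CPM in control libraries and 23.7 and 20.4 CPM in srsf5a-morpholino libraries (-0.58 ± 0.14, adjusted p = 0.0782 in edgeR and 0.0304 in DESeq2), without overlap. ENSDARG00000091061 had 34.2 and 39.5 against 37.3 and 40.3 CPM (0.07 ± 0.11), with overlap. SLC38A2, the stress-inducible carrier SNAT2, had 129 and 123 CPM against 140 and 111 CPM, a spread between the srsf5a-morpholino libraries that covers both controls (-0.0028 ± 0.13). SLC38A4 (0.01 ± 0.09) and SLC38A9, a lysosomal arginine sensor (-0.22 ± 0.21), had overlapping groups. The family median was 0.08.

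The slc36a genes for proton-coupled carriers, SLC36A1 and slc36a4, had log2 fold changes of 0.07 ± 0.12 and -0.05 ± 0.11. Neither was called in edgeR or DESeq2 or had an unadjusted p under 0.05. Of all tested genes, edgeR called 1.22% higher and 0.768% lower, and DESeq2 called 2.56% and 2.21%. Unadjusted, those shares were 10.5% and 10.1%. SLC36A1 had 12.8 and 13.8 against 13.7 and 14.3 CPM, and slc36a4 had 18.5 and 19.4 against 18.5 and 18.3 CPM.

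**Figure D3:**
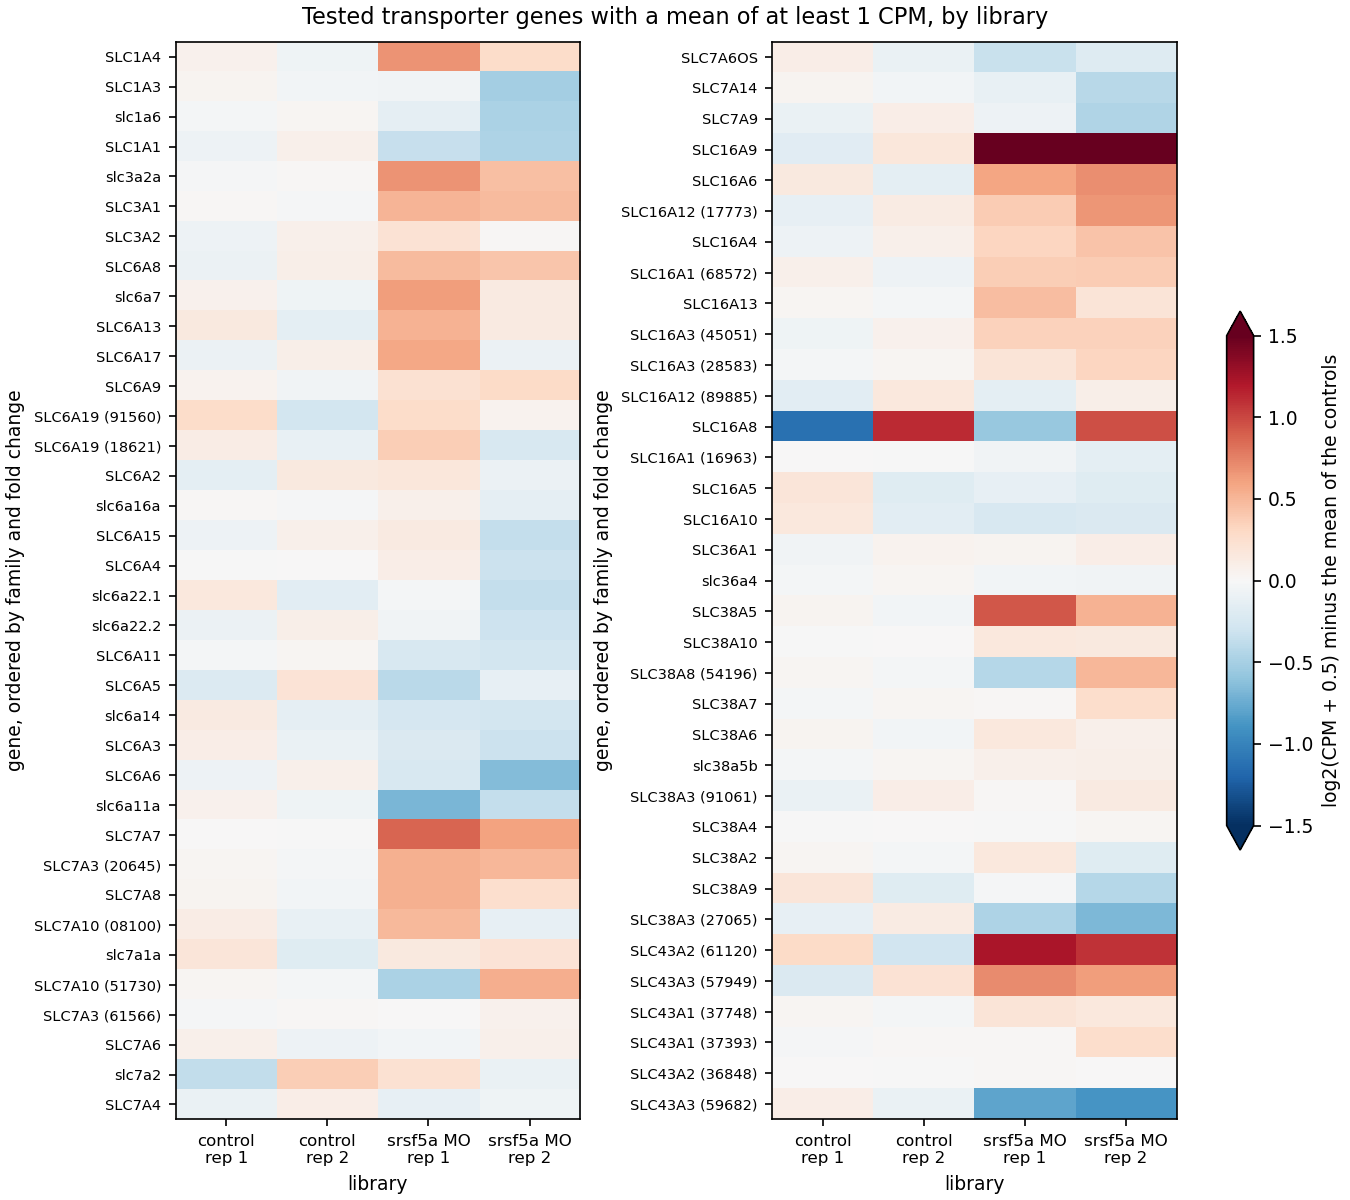
Values by library (columns) of the 71 tested members with a mean of at least 1 CPM (rows, ordered by family and then fold change), as log2(CPM + 0.5) minus the mean of the controls, with colours limited at 1.5 either way. Red is above and blue below the controls; SLC16A9 is dark in both srsf5a-morpholino columns, SLC43A2 ENSDARG00000061120 and SLC7A7 are also red in both, and SLC16A8 alternates with replicate number.

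The slc1a family held values on both sides of 0 without a call in edgeR. Of 8 members 5 were tested, 1 was higher and 1 lower at an unadjusted p under 0.05, and DESeq2 called 1 higher and 0 lower. The shares of all tested genes were 10.5% and 10.1% unadjusted, 1.22% and 0.768% called in edgeR, and 2.56% and 2.21% in DESeq2. SLC1A4, the neutral amino acid exchanger ASCT1, had 102 and 93.1 CPM in control libraries and 156 and 118 CPM in srsf5a-morpholino libraries (0.49 ± 0.14, adjusted p = 0.118 in edgeR and 0.0324 in DESeq2). Of the tested glutamate carrier genes 3 lay below 0, and an SLC1A7 gene (ENSDARG00000034940) with few reads stood at 0.10 ± 0.68. SLC1A3, the glial carrier EAAT1, had 54.7 and 51.7 against 51.4 and 37.3 CPM (-0.26 ± 0.15), and the drop lay mainly in srsf5a-morpholino replicate 2. SLC1A1, or EAAT3, had 10.5 and 11.8 against 8.67 and 7.94 CPM (-0.43 ± 0.15, adjusted p = 0.159 in edgeR), and slc1a6 had 4.74 and 4.96 against 4.38 and 3.35 CPM (-0.33 ± 0.22). The median of the 5 was -0.26, and between -0.51 and -0.05 when each library was left out.

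Of 23 slc6a members 19 were tested. None was called in edgeR or DESeq2, and 2 were higher and 3 lower at an unadjusted p under 0.05. At that level 10.5% of all tested genes were higher and 10.1% lower. Of all tested genes, edgeR called 1.22% higher and 0.768% lower, and DESeq2 called 2.56% and 2.21%. The median log2 fold change was -0.10, which turned to 0.10 without srsf5a-morpholino replicate 2. SLC6A8, the creatine transporter, had 27.2 and 30.6 CPM in control libraries and 40.3 and 38.7 CPM in srsf5a-morpholino libraries (0.45 ± 0.11, adjusted p = 0.0828 in edgeR), without overlap. SLC6A9, the glycine transporter GlyT1, had 193 and 180 against 218 and 227 CPM (0.26 ± 0.09, adjusted p = 0.183 in edgeR), also without overlap. The proline transporter gene slc6a7 stood at 0.42 ± 0.19 without overlap, with srsf5a-morpholino replicate 1 the highest library at 16.4 CPM.

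Carriers of GABA differed in sign, with SLC6A13, a GABA carrier of the GAT2 type, at 0.38 ± 0.22 and overlapping groups. slc6a11a, a GABA transporter of the GAT3 type, had 24.4 and 22.1 CPM in control libraries and 14.3 and 18.0 CPM in srsf5a-morpholino libraries (-0.53 ± 0.15, adjusted p = 0.109 in edgeR). The other SLC6A11 gene (ENSDARG00000087981) had 47.4 and 49.2 against 40.9 and 39.7 CPM (-0.26 ± 0.09), and neither gene's groups overlapped. SLC6A6, the taurine transporter, had 14.6 and 16.1 against 12.9 and 9.55 CPM (-0.45 ± 0.17). None of the monoamine transporter genes had an unadjusted p under 0.05: SLC6A2 for noradrenaline at 0.03 ± 0.23, SLC6A3 for dopamine at -0.37 ± 0.33 and SLC6A4 for serotonin at -0.10 ± 0.17. SLC6A5, the neuronal glycine transporter GlyT2, stood at -0.30 ± 0.19.

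Of 10 genes matched to the neuronal marker list, 9 had log2 fold changes below 0, as did 9948 of all 19917 tested genes. The STMN1, SNAP25 and GAD1 symbols carry no paralog letter. Both genes of each were therefore counted, although the list sought a single paralog. All 10 matched marker genes were tested, none was at 0, and GAD2 was called lower in edgeR (-0.71 ± 0.10, adjusted p = 0.0264). DESeq2 called GAD2, ELAVL3, ELAVL4 and an STMN1 gene (ENSDARG00000033655) lower. At an unadjusted p under 0.05 in edgeR, 7 of the 10 were lower and 0 higher. Over all tested genes 0.768% were called lower in edgeR and 2.21% in DESeq2, and 10.1% were lower unadjusted. The summed level of the 10 genes was 1555 to 1584 CPM in control libraries and 1201 to 1233 CPM in srsf5a-morpholino libraries. Of 5 glial markers matched, 4 were tested, 2 above and 2 below 0, and mbpa had no more than 0.303 CPM. A FABP7 gene (ENSDARG00000007697) was called lower in edgeR (-0.62 ± 0.09, adjusted p = 0.0316), while S100B stood at 0.83 ± 0.29 (adjusted p = 0.169 in edgeR) without overlap and the other FABP7 gene at 0.09 ± 0.33. The glial sum was 619 to 637 CPM against 464 to 466 CPM, a difference that lay almost wholly in that FABP7 gene (means of 442 and 287 CPM). In RNA from whole embryos fewer cells of a type and less RNA per cell cannot be told apart, and the part of these markers in the values of the carriers was not tested.

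The 9 members with too few reads were SLC1A2 (ENSDARG00000052138), an SLC1A7 gene, slc1a8b, slc6a1l, an SLC6A19 gene, slc6a4b, SLC6A18, slc16a7 and SLC38A11. None of them exceeded 0.467 CPM in any library. For scale, a count of 0 allows up to 3 counts, which are 0.0817 to 0.200 CPM in these libraries (counting error only). Among tested carriers of kidney and gut, the remaining SLC6A19 genes were also sparse, at 1.12 to 2.73 CPM, and had log2 fold changes of 0.24 ± 0.35 and 0.14 ± 0.33.

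Paralogs were also compared with each other. With genes paired when their symbols matched apart from a final a or b, 16 pairs had both members tested. The log2 ratio of one paralog to the other within a library is independent of library scaling. Its values did not overlap between the groups in 8 of the 16 pairs. That share is near the background, since 46.9% of the 1066 pairs of tested genes with the same symbol also had ratios without overlap. Those background pairs needed an identical symbol, a stricter rule than for the member pairs. The SLC43A3 ratio (ENSDARG00000059682 over ENSDARG00000057949) was 0.35 and -0.35 in control libraries and -1.66 and -1.68 in srsf5a-morpholino libraries, a difference of -1.67. The SLC43A2 ratio (ENSDARG00000061120 over ENSDARG00000036848) was 0.36 and -0.20 against 1.29 and 1.16, a difference of 1.15. These were the 2 pairs whose ratio moved by at least 2-fold.

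The other 6 pairs without overlap were those of SLC38A5 (0.66), SLC38A3 (-0.65), SLC16A12 (0.59), SLC16A1 (0.49), SLC7A3 (0.48) and SLC3A2 (0.45), each as the difference in log2 ratio. In each ratio the gene with the larger change is on top. With 2 libraries against 2, the exact two-sided permutation test cannot give a p below 0.333, which is the p of each of these 8 pairs. By contrast, the SLC16A3 pair (0.06) and the SLC43A1 pair (0.04) had overlapping ratios with small differences.

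**Figure D4:**
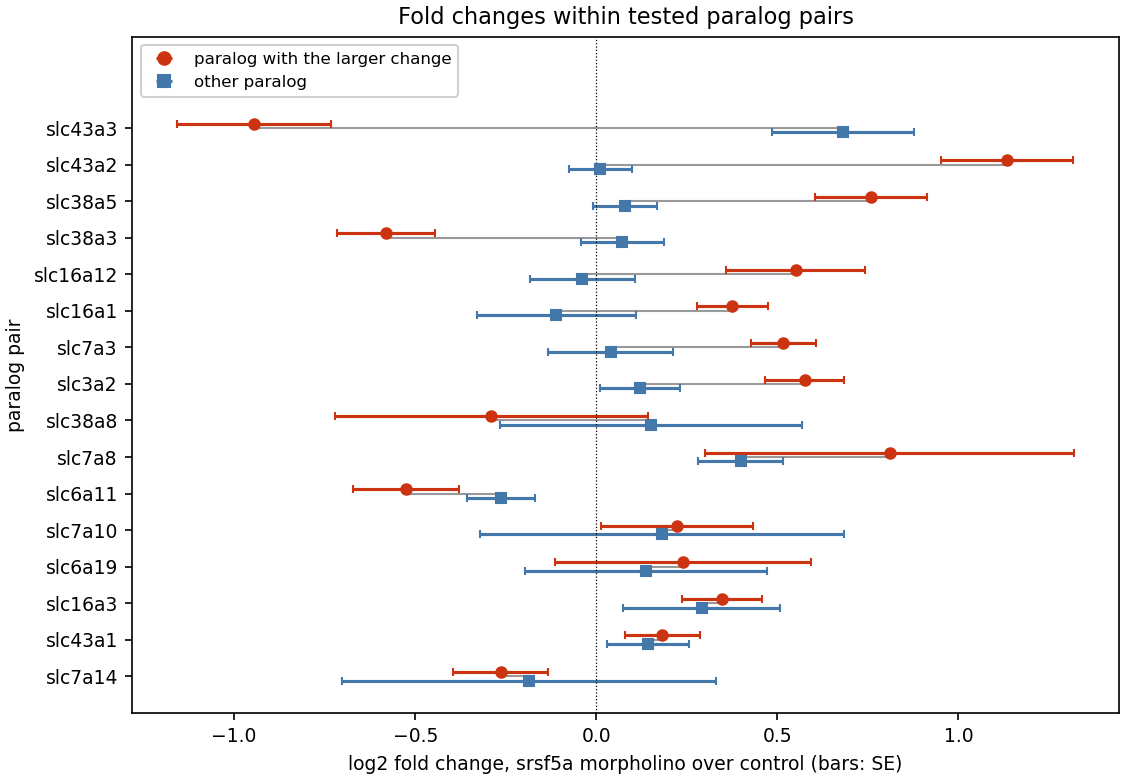
Log2 fold changes (x axis, srsf5a morpholino over control, bars are SE) of both genes in each of the 16 tested paralog pairs (y axis), ordered by the difference in their ratio. Red circles are the paralog with the larger change and blue squares the other; slc43a3 spans from -0.95 to 0.68, slc43a2 from 0.01 to 1.13, and the pairs at the bottom lie close together.

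Members that are ATF4 targets in mammals were also counted together. The list was chosen with earlier results of these data known, so its shares describe it and test nothing. All 11 genes are also in the family counts above. Of 11 matched and tested, 1 was called higher (SLC7A3) and 0 lower in edgeR, 4 were higher and 0 lower at an unadjusted p under 0.05, and DESeq2 also called SLC1A4 and slc3a2a. The groups did not overlap, upward, in 5 genes, and 9 of the 11 lay above 0 with a median of 0.18. Over all tested genes, 1.22% were called higher and 0.768% lower in edgeR, and 2.56% were called higher in DESeq2. At the unadjusted level 10.5% were higher and 10.1% lower. Of all tested genes 26.1% did not overlap, upward, and 50.1% lay above 0. The summed level of the 11 genes was 681 and 657 CPM in control libraries and 845 and 773 CPM in srsf5a-morpholino libraries. SLC38A2 and slc7a11 were the 2 below 0, by less than their errors. The sought genes slc1a5 and slc7a5 had no matching symbol and were not analysed here.

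Genes that work beside these carriers were read from a list of partners, enzymes and sensors, of which 33 matched and 30 were tested. In edgeR 1 was called higher and 1 lower, DESeq2 called 3 in all, and the median was 0.07. Among all tested genes edgeR called 1.22% higher and 0.768% lower, and DESeq2 called 2.56% and 2.21%. The higher one was cltrn, or collectrin, which in mammals brings SLC6A19 to the surface of kidney cells. It had 1.60 and 1.61 CPM in control libraries and 5.59 and 4.12 CPM in srsf5a-morpholino libraries (1.59 ± 0.26, adjusted p = 0.0360 in edgeR). Genes sought as kidney tubule markers lay on both sides. Of 6 genes 1 was called higher and 0 lower in edgeR, and 2 were higher and 2 lower at an unadjusted p under 0.05. Both SLC20A1 and both PAX2 genes were counted, because their symbols carry no paralog letter. The higher 2 were an SLC20A1 gene (ENSDARG00000020114, 0.95 ± 0.14, the edgeR call) and CDH17 (0.53 ± 0.11), both called higher in DESeq2. The lower 2 were the PAX2 genes (-0.55 ± 0.12 and -0.73 ± 0.15, both called lower in DESeq2). Unadjusted, 10.5% of all tested genes were higher and 10.1% lower. None of the kidney markers was at 0, and their sum was 465 to 476 CPM in control libraries and 504 to 562 CPM in the other group. The part of these markers in the cltrn value was not tested.

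The vesicular GABA and glycine carrier SLC32A1 had 57.1 and 61.1 against 49.3 and 44.8 CPM (-0.33 ± 0.10), the vesicular glutamate carriers SLC17A6 stood at -0.31 ± 0.16 and -0.29 ± 0.11, and the SLC17A7 genes, of the same kind, at 0.08 ± 0.31 and 0.03 ± 0.22 with overlap. BSG, or basigin, the chaperone of MCT1 and MCT4, was at 0.09 ± 0.09. LDHB, a lactate dehydrogenase subunit, was at 0.30 ± 0.10, and ldhbb, with fewer reads, at -0.08 ± 0.27. sesn2, a leucine sensor, had 8.61 and 5.78 against 19.9 and 13.3 CPM and was called in DESeq2 (adjusted p = 0.000852) but not in edgeR (1.24 ± 0.26, adjusted p = 0.0589). It moved most among the sensor genes of the list. The others were SESN1 (-0.21 ± 0.12), sesn3 (0.40 ± 0.13), castor1 (0.46 ± 0.23) and CASTOR2 (0.16 ± 0.12), none called in edgeR or DESeq2.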

How the data were processed

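The Zv9 build and the tools Picard, DESeq2, HTSeq and TopHat are named, per the submitters' processing notes, without versions; annotation release and strand setting were not found. The deposited files hold raw read counts per gene. Genes held 53.0% to 57.1% of listed reads, and the summary lines with the rest were kept out of library sizes. The authors' deposited table holds a signal column (mean normalized counts), log2 fold changes, a score column (Wald statistic) and p-values, and was used only for the values credited to it.

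Counts were tested in edgeR 4.0.16 (R 4.3.3) with TMM factors, filterByExpr at a minimum count of 10 and a total of 15, and group as the only term of the quasi-likelihood fit. Adjustment was over all 19917 tested genes. Standard errors were derived from the F statistic. CPM uses TMM-scaled totals. DESeq2 1.42.0 ran without independent filtering. Paralog ratios used counts plus 0.5. Figures were drawn with matplotlib 3.10.9. The fit was tested on simulated data.

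Symbols came from a supplied table naming 20603 identifiers, many in human-style capitals shared by paralogs. Of the rows matched by prefix 2, and the gene of the related list called lower, are not reported here. Members and lists were chosen with earlier results of these data known. Genes given with values were SLC16A9, called members and their paralogs, the 2 members with most reads, the lowest p and the largest change in each family, heavy chains and mammalian ATF4 targets; every other gene given with values was chosen after its values were seen. Counts of replicates differed beyond sampling noise in both groups, at 8.72 and 13.5 chi-square units per degree of freedom.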

Additional observations from a re-analysis of the deposited data

How the results depend on the processing

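The number of calls depended on the libraries and the test more than on scaling or filters. Over all genes it was 395, became 949 in DESeq2 and 1582 with the replicate number as a block, and ran from 33 to 1410 when each library was left out. The member count of 3 became 8 in DESeq2, 13 with the replicate block and 4 when genes needed 1 CPM in 2 libraries, and ran from 1 (without control replicate 2) to 10 (without srsf5a-morpholino replicate 2). The related list went from 2 to 5 with the replicate block and ran from 0 to 4 without single libraries. RLE factors and no filter kept the same 3 members. With the replicate block, 2 of the 13 member calls were lower, SLC38A3 (ENSDARG00000027065) and SLC43A3 (ENSDARG00000059682). With single libraries left out, SLC16A9 ran from 2.62 to 3.27, SLC43A2 (ENSDARG00000061120) from 0.87 to 1.44 and SLC7A3 (ENSDARG00000020645) from 0.49 to 0.54.

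Family medians ran, without single libraries, from -0.51 to -0.052 (slc1a), 0.46 to 0.58 (slc3a), -0.28 to 0.10 (slc6a), -0.0037 to 0.16 (slc7a), 0.28 to 0.36 (slc16a), -0.032 to 0.056 (slc36a), 0.0091 to 0.091 (slc38a) and 0.10 to 0.22 (slc43a). Of 36 genes followed across 9 alternatives, 30 kept their direction throughout. SLC16A8 went from -0.11 to 1.91 without control replicate 2. Fits without a single library also had fewer libraries, and the cause of these changes was not tested. Same-numbered libraries deviated together (correlation 0.39 across 19917 genes). The labels do not say whether a number marks a shared batch, and this was not tested. Depth limits the members below about 1 CPM, such as SLC1A7 (ENSDARG00000034940) with an error of 0.68 on the log2 scale, and the 9 not tested.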
